A study of Mus musculus with 6 samples.

Results

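The KLF and SoxC axon growth factors are a set of 9 transcription factor genes, Klf4, Klf6, Klf7, Klf9, Klf13, Klf16, Sox4, Sox11 and Sox12, taken by gene symbol with every probe set that the array's annotation gives to them. They had 39 of the 45037 probe sets analysed, and 32 of these were bright enough to be tested, at least 1 for each gene, among 33169 tested probe sets of 15103 genes. RNA came from ganglion cell layer that was laser-captured from frozen eye sections of male C57BL/6J mice, 3 eyes whose optic nerve had been crushed 6 hrs before and 3 uninjured contralateral eyes as controls, with 1 Affymetrix mouse genome array per eye and no transgene in either group. Age was not given in the sources used here. The design asks which genes change in the layer of the retinal ganglion cells (RGCs) within the first hours after their axons are injured.

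Krüppel-like factors (KLFs) are zinc finger proteins that bind GC-rich DNA and CACCC boxes. In RGCs and other central neurons, Klf6 and Klf7 are known to favor the growth of axons, while Klf4, Klf9, Klf13 and Klf16 are known to limit it, and several of the family change in level as RGCs lose their capacity for axon growth after birth. Sox4, Sox11 and Sox12 form the SoxC group of HMG box factors. Sox4 and Sox11 together are needed for the birth and differentiation of RGCs, and forced Sox11 promotes axon regrowth of some RGC types and death of others. The captured layer also holds displaced amacrine cells, astrocytes, microglia, vessels and the end feet of Muller cells, so the values below are those of the whole layer, and fewer cells of a type cannot be told apart from less RNA per cell.

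The genes that the comparison below turns on are Klf6 and Sox11, and Klf9 is the best known thyroid hormone responsive member. The 250 bases before the transcription start of each, from RefSeq on GRCm38.p6, are shown to give the regulatory context of these genes. A start was listed for 8 of the 9 genes. Capitals mark letters that match 1 of 6 motifs searched on both strands, namely STAT (TTCNNNGAA), AP-1 (TGANTCA), the CRE core (TGACG), the E-box (CACGTG), the GC box (GGGCGG) and the CACCC box (CACACCC). The windows are chr13:5861239-5861488 on the plus strand for Klf6, chr12:27342719-27342968 on the minus strand for Sox11 and chr19:23140976-23141225 on the plus strand for Klf9, each printed 5′ to 3′ along the gene.
Klf6: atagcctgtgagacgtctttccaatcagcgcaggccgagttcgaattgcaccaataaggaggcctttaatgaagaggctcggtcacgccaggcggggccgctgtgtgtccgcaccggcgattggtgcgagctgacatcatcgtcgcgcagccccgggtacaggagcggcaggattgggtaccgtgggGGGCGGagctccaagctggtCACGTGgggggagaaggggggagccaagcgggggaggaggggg
Sox11: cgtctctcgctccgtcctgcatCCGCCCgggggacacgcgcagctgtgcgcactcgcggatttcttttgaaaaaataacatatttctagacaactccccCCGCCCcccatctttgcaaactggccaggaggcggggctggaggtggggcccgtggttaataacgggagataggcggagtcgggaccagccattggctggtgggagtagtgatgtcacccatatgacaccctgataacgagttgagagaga
Klf9: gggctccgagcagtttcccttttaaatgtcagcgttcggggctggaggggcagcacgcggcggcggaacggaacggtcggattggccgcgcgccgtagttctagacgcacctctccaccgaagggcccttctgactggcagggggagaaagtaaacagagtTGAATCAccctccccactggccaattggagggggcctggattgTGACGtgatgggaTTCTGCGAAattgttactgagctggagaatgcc
The window of Klf6 held 1 GC box and 1 E-box, and that of Sox11 held 2 GC boxes. Among the 8 members, a GC box was found in 6 windows, where 32.7% of the 32851 windows of the table held it. The CACCC box was found in 0 of 8, against 6.93% of all windows. The GC content of the member windows ran from 50.8% for Sox4 to 74.4% for Sox12, where the median of all windows was 52.4%. The part of GC content in the count of GC boxes was not tested. Klf9 was the 1 member of 8 with a STAT match and the 1 with an AP-1 match, which 7.02% and 6.75% of all windows held. It also held a CRE core, found in 4 of 8 members and in 17.8% of all windows. A match describes letters only and says nothing of binding.

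The captured layer carried the markers of ganglion cells, of which 15 of 16 were measured and none lay under the floor of 16 on every array. The summed intensity of these markers was 68718 to 70554 in control eyes and 61444 to 76951 after crush. Rod markers were bright too, with sums of 35538 to 60929 in controls and 49569 to 56996 after crush. On the first principal component, with 44.2% of the variance, the array of crush eye 2 stood apart, and that of crush eye 3 did so on the next, with 27.8%. Array medians were between 131.2 and 153.9.

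At 6 hrs after crush, 6 of the 9 genes were higher and 3 lower on average, when each gene was read by its brightest probe set. Of all tested genes 45.7% were higher by the same reading. In limma the unadjusted p was under 0.05 for Klf6, which was higher, and this 1 of 9 stands beside 2.76% of all genes that were higher by the same rule. None of the 9 was lower, where 2.27% of all genes were. No member passed an adjusted p under 0.05, the lowest being 0.642. Of all 33169 tested probe sets 2546, or 7.68%, were past the unadjusted threshold, and 0 were past the adjusted one in limma or by the methods' t-test, against 1 when limma was run with a trend and robust prior. Klf6 was also the 1 gene of 9 whose crushed eyes all lay above the controls, beside 5.69% of all genes, and 0 had them all below, beside 5.32%. Klf6 and Sox4 were higher in each of the 3 pairs, 2 of 9 genes beside 15.2% of all. The median log2 fold change of the 9 genes was 0.10, against -0.02 for all tested genes, and by pair it was 0.104, -0.0248 and 0.278.

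**Figure D1:**
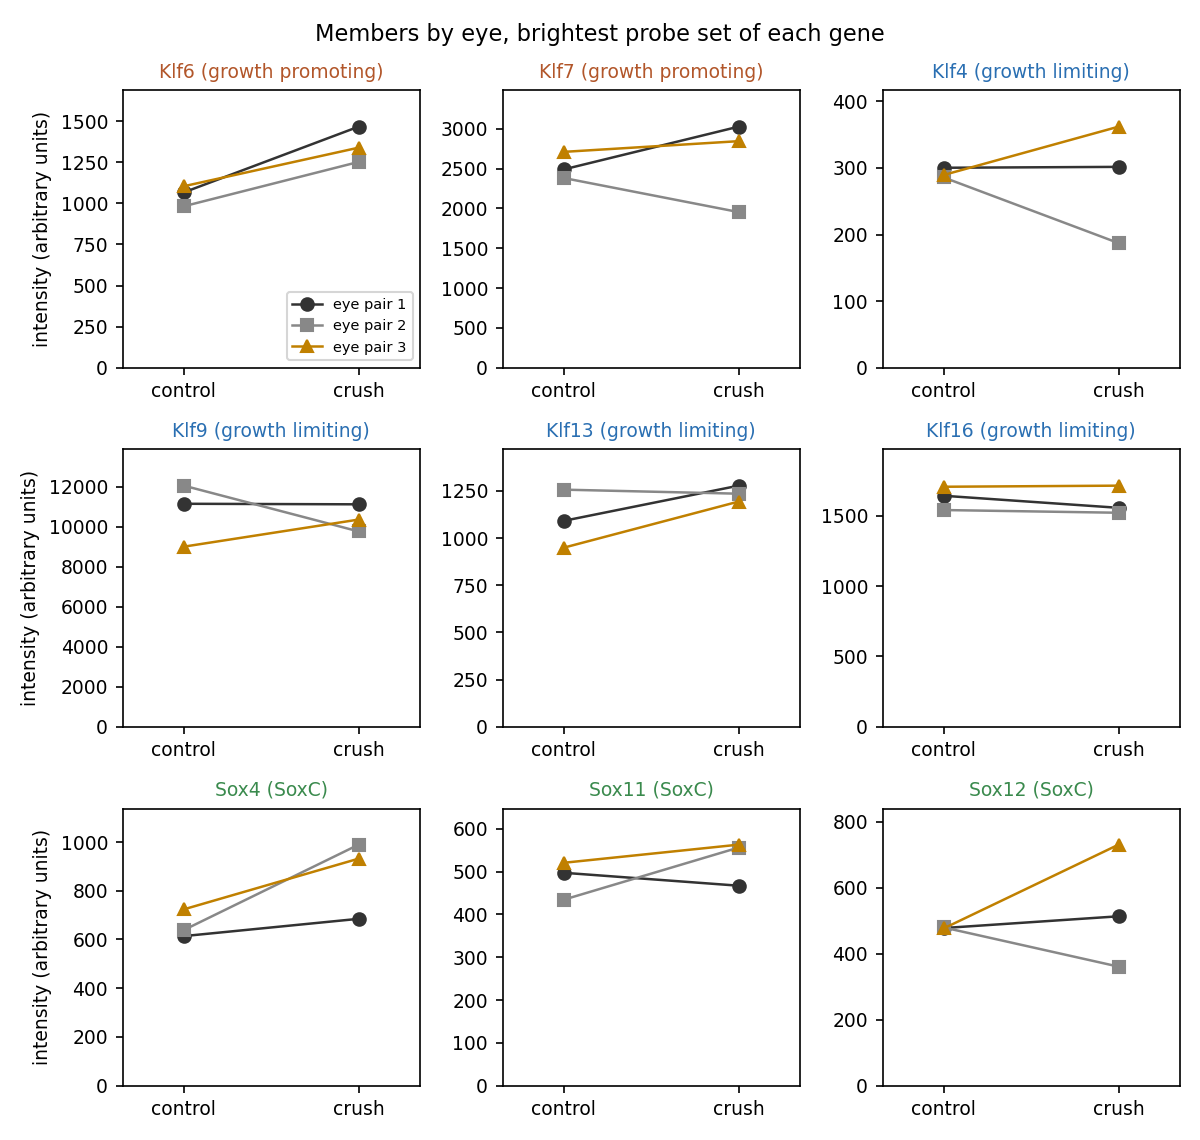
Array intensity in arbitrary units, on linear axes from 0, of the brightest probe set of each of the 9 genes in control and crushed eyes. Each symbol is 1 eye, and a line connects both eyes with the same number. Klf6 and Sox4 were higher in the crushed eye of all 3 pairs, and Klf4, Klf7, Klf16 and Sox12 had their lowest value in crush eye 2.

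Of the growth-promoting KLFs, Klf6 is an early gene that many cell types induce after injury. Its brightest probe set (1433508_at) had intensities of 1067, 983 and 1105 in control eyes 1, 2 and 3 and of 1468, 1253 and 1340 in crush eyes 1, 2 and 3. All 3 crushed eyes were above all 3 controls. Mean intensity was 1052 ± 62.5 for controls and 1353 ± 108 for crushed eyes (SD, n = 3 eyes each). This gave a log2 fold change of 0.36 (standard error 0.14, 95% confidence interval 0.02 to 0.71, unadjusted p = 0.0428 and adjusted p = 0.642 from limma). By pair, the log2 differences were 0.459, 0.35 and 0.278. Klf6 was read by 5 probe sets, and 4 of them were above 0, beside 48.9% of all tested probe sets. The next in brightness (1447448_s_at) was at 737, 652 and 708 in controls and at 927, 821 and 692 after crush, so it was higher in pairs 1 and 2 and at -0.0331 in pair 3, with a log2 fold change of 0.21 (unadjusted p = 0.223). The other 3, which were dimmer, had log2 fold changes of 0.21, -0.08 and 0.33 and differed in direction between pairs. The dimmest (1459718_x_at, 0.33) carries the same source sequence in the annotation as 1447448_s_at, so these are not independent readings. The call for the brightest probe set was lost after quantile normalization (0.33, unadjusted p = 0.063) and with equal array medians (0.36, unadjusted p = 0.0539). It was also lost with the mean over its probe sets (0.21, unadjusted p = 0.171), and without pair 1 (0.31), pair 2 (0.37) or pair 3 (0.40). Leaving out both the array of crush eye 3 and the pairing of eyes lost it too (0.37, unadjusted p = 0.0529). With only the pairing left out it was kept (0.36, unadjusted p = 0.0285 from limma).

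Klf7, the close relative of Klf6 that sensory and olfactory neurons need for axon outgrowth, was read by 4 probe sets, and its brightest one differed from the others. On the brightest (1419354_at) controls were at 2491, 2382 and 2711 and crushed eyes at 3028, 1955 and 2845. The crushed eyes lay on both sides of the controls, with crush eye 2 the lowest of all, and the log2 fold change was 0.02 (95% confidence interval -0.40 to 0.45, adjusted p = 0.977 from limma). On the next (1449439_at) controls were at 1342, 1293 and 1105 and crushed eyes at 1688, 1407 and 1674. Here the groups did not overlap, with a log2 fold change of 0.35 (95% confidence interval -0.05 to 0.75, unadjusted p = 0.074). The third (1419356_at) went from 1007, 1119 and 1062 to 1495, 1208 and 1133, again without overlap, with a log2 fold change of 0.26 (unadjusted p = 0.174). The dimmest had 0.35 and was lower in pair 2. These 4 probe sets carry 1 source sequence in the annotation, so they are not independent readings of Klf7, and none passed the test.

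The growth-limiting KLFs had 10 tested probe sets, of which 2 were above 0, 8 below, and 0 past an unadjusted p under 0.05 from limma. Of all tested probe sets 48.9% were above 0, and 5.16% were higher and 2.51% lower by that threshold. The 8 below 0 were 5 of Klf9, 2 of Klf4 and 1 of Klf16, so they are not 8 separate genes. Klf9, which thyroid hormone and glucocorticoids induce, had 5 of the 10 tested probe sets. Its brightest probe set (1456341_a_at) was at 11147, 12053 and 9002 in controls and at 11120, 9764 and 10357 after crush, so the crushed eyes lay within the range of the controls. The log2 fold change was -0.04 (95% confidence interval -0.44 to 0.37, adjusted p = 0.962 from limma), and it was 0.10 without pair 2 and 0.0052 after quantile normalization. The other probe sets of Klf9 had -0.11, -0.06, -0.36 and -0.06, and the difference was largest in pair 2 for the first 3 of them, at -0.391, -0.363 and -1.16. A further 2 probe sets of Klf9 were too dim to test, with a highest intensity of 30.6.

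Klf4, which is also known as a reprogramming factor and is expressed in endothelium, was at 300, 286 and 290 in controls and at 302, 187 and 362 after crush on its brightest probe set (1417394_at). The controls were nearly equal, crush eye 2 was below them and crush eye 3 above. The standard deviation was 7.58 in controls and 88.8 after crush (n = 3 eyes each), and the log2 fold change was -0.09 (95% confidence interval -0.64 to 0.45), and 0.16 without pair 2. Its dimmer probe set had the same order of pairs, with log2 differences of -0.258, -0.686 and 0.872. The brightest was at 0.00638 in pair 1. Both probe sets carry the same source sequence in the annotation, so they are not independent readings of Klf4. The summed endothelial and pericyte markers were at 18186 to 19417 in controls and 17950 to 19488 after crush, and their median log2 difference was -0.13, 0.183 and 0.119 in the 3 pairs. The part of these cells in the values of Klf4 was not tested.

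Klf13 and Klf16 are repressors related to Klf9. Klf13 was at 1092, 1257 and 949 in controls and at 1278, 1235 and 1194 after crush (1436316_at), so that 2 crushed eyes lay within the range of the controls and 1 just above it, with a log2 fold change of 0.18 (95% confidence interval -0.20 to 0.55, adjusted p = 0.738 from limma). Its other tested probe set had 0.12, and the remaining one was too dim to test. Klf16 has 1 probe set, at 1643, 1542 and 1708 in controls and 1558, 1522 and 1715 after crush. The groups overlapped throughout, with log2 differences of -0.0773, -0.0182 and 0.00658 and a log2 fold change of -0.03 (95% confidence interval -0.37 to 0.31). These intervals leave room for a difference of the size seen for Klf6 in either direction for Klf4 and Klf9, upward for Klf13 and downward for Klf16.

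**Figure D2:**
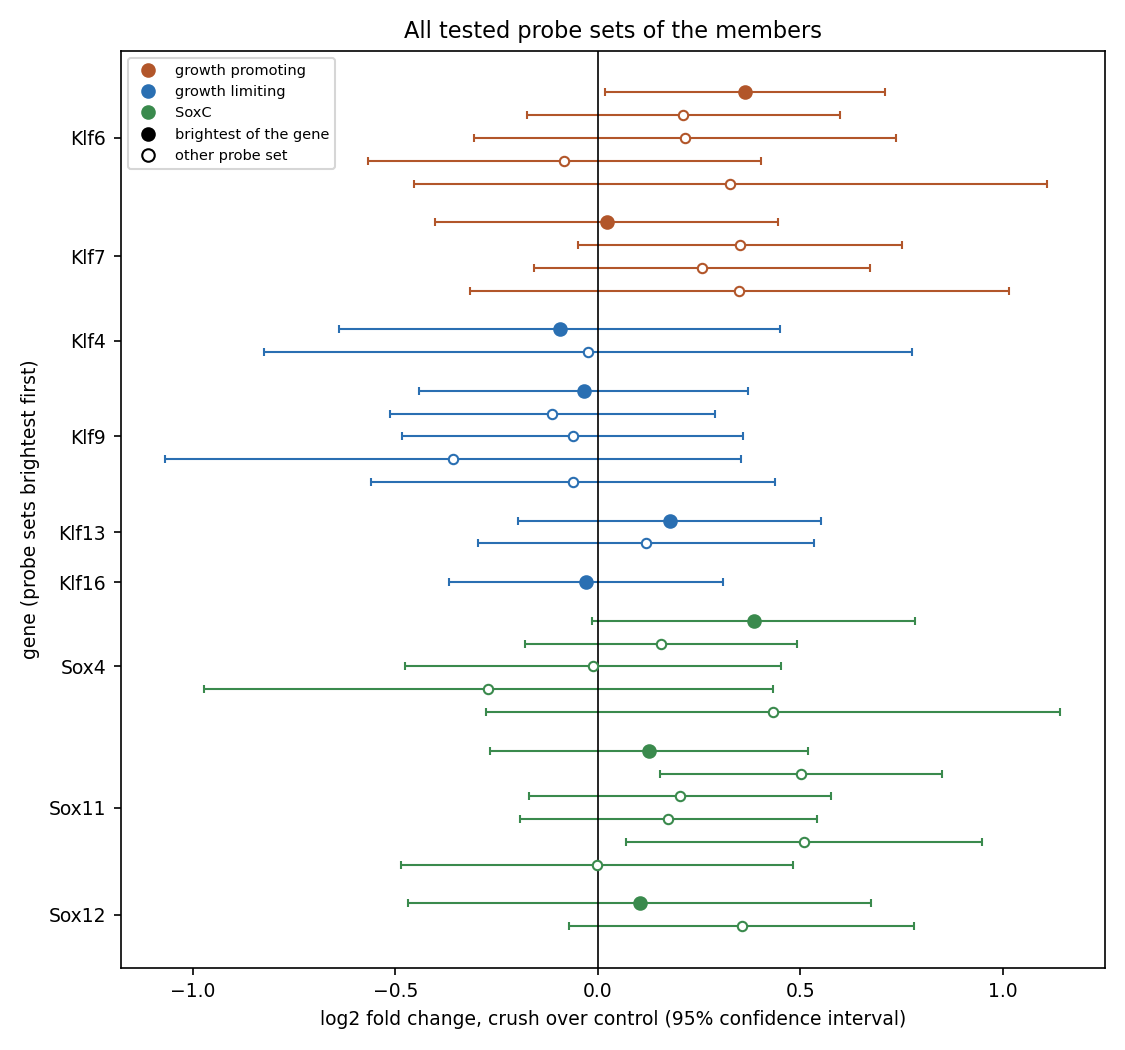
Log2 fold change of crush over control with its 95% confidence interval from limma, for the 32 tested probe sets of the 9 genes, brightest first within each gene. Filled points are the brightest probe set of a gene. The intervals of 3 probe sets lie above 0, 1 of Klf6 and 2 of Sox11, and none lies below 0.

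Of the SoxC genes, Sox11 is the member whose forced expression acts on regeneration of RGC axons, and its 6 probe sets, all tested, disagreed in size. The brightest (1436790_a_at) was at 497, 434 and 520 in controls and at 467, 556 and 563 after crush. The groups overlapped, since crush eye 1 was below control eye 1, and the log2 fold change was 0.13 (95% confidence interval -0.27 to 0.52, adjusted p = 0.822 from limma). The next (1453125_at) was at 237, 261 and 289 in controls and at 364, 354 and 394 after crush. Every crushed eye was above every control, with log2 differences of 0.62, 0.438 and 0.449, means of 262 ± 25.9 for controls and 371 ± 20.9 for crushed eyes (SD, n = 3 eyes each) and a log2 fold change of 0.50 (standard error 0.14, 95% confidence interval 0.15 to 0.85, unadjusted p = 0.0134 and adjusted p = 0.642 from limma). A dimmer probe set (1453002_at) was at 157, 167 and 139 in controls and at 178, 245 and 241 after crush, again without overlap, with a log2 fold change of 0.51 (95% confidence interval 0.07 to 0.95, unadjusted p = 0.0305). The others had 0.20, 0.17 and -0.00, and those of 0.20 and 0.17 were higher in the crushed eye of all 3 pairs.

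The 2 nominal calls of Sox11 differed in how far they held. For 1453125_at an unadjusted p under 0.05 was kept in 13 of 14 other settings and lost without pair 1 (log2 fold change 0.44, unadjusted p = 0.0944), and its log2 fold change ranged from 0.44 to 0.54. For 1453002_at it was kept in 8 of 14, with a range of 0.37 to 0.68. Each of these probe sets shares its source sequence in the annotation with another that did not pass. The partner of 1453125_at was the dimmest probe set (1429372_at, -0.00), and the partner of 1453002_at was 1429051_s_at (0.17).

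**Figure D3:**
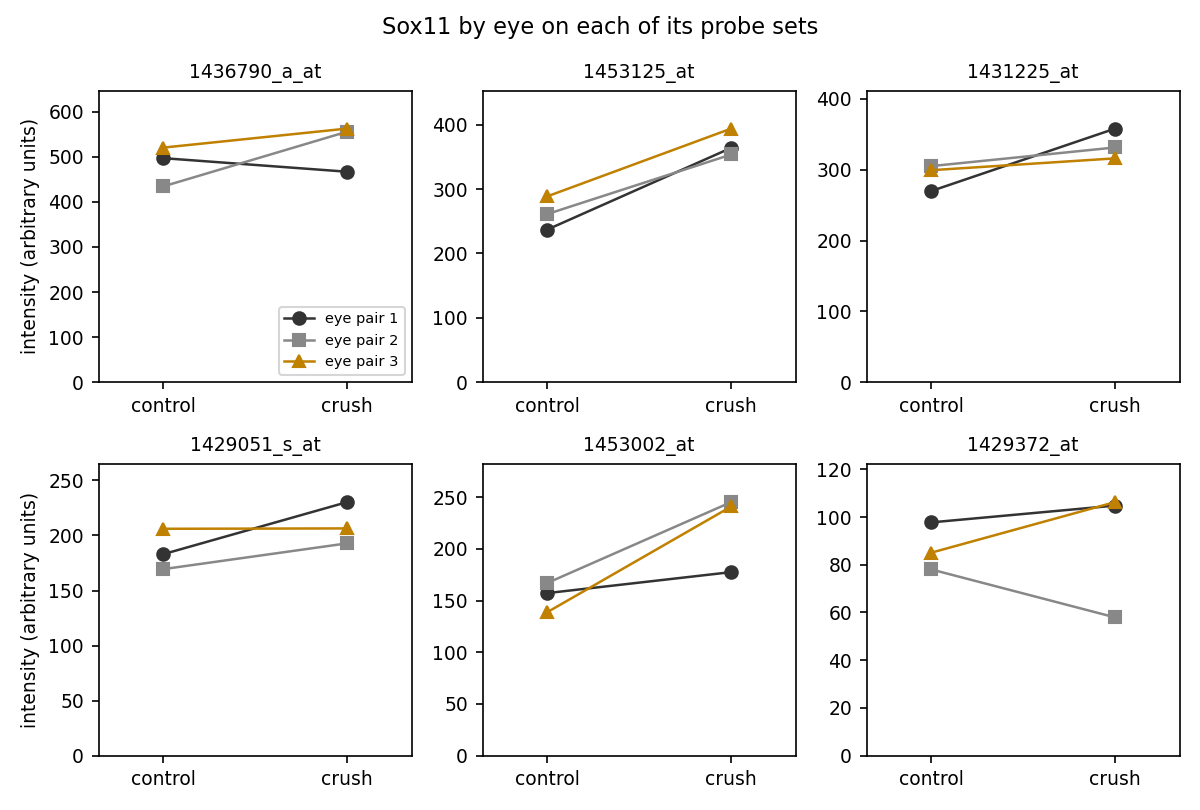
Array intensity in arbitrary units, on linear axes from 0, on the 6 probe sets of Sox11, brightest first, in control and crushed eyes. A line connects both eyes with the same number. On 1453125_at, 1431225_at and 1453002_at all crushed eyes lie above all control eyes, while on 1436790_a_at and 1429372_at the direction differs between pairs.

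Sox4, which acts with Sox11 in the making of RGCs, was at 614, 639 and 724 in controls and at 685, 989 and 932 after crush on its brightest probe set (1433575_at). It was higher in the crushed eye of every pair, by 0.158, 0.631 and 0.364, but crush eye 1 lay below control eye 3. Mean intensity was 659 ± 57.6 for controls and 869 ± 162 for crushed eyes (SD, n = 3 eyes each). This gave a log2 fold change of 0.38 (standard error 0.16, 95% confidence interval -0.01 to 0.78, unadjusted p = 0.0558 and adjusted p = 0.642 from limma). The unadjusted p was under 0.05 with the trend and robust prior (0.0428) and when means of 100 or more were required (0.0447), and over it in the other settings. The log2 fold change was 0.14 with the mean of its probe sets (unadjusted p = 0.319), 0.34 after quantile normalization (unadjusted p = 0.108) and 0.26 without pair 2 (unadjusted p = 0.171). The next probe set (1419155_a_at) was at 214, 205 and 210 in controls and at 235, 230 and 237 after crush. Its groups did not overlap and varied little, but the difference was small, with a log2 fold change of 0.16 (unadjusted p = 0.29). The 3 other tested probe sets had means under 100 and log2 fold changes of -0.01, -0.27 and 0.43, and another 3 were too dim to test.

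Sox12, the SoxC member with the weakest known activity as an activator, was at 478, 479 and 477 in controls and at 513, 361 and 730 after crush on its brightest probe set (1455562_at). The controls were almost equal, with a standard deviation of 1.37, while the crushed eyes spread to both sides with a standard deviation of 186 (n = 3 eyes each), and the log2 fold change was 0.10 (95% confidence interval -0.47 to 0.68), and -0.15 without pair 3. The other tested probe set (1439754_at) was at 283, 333 and 381 in controls and at 305, 405 and 608 after crush, higher in all 3 pairs with a log2 fold change of 0.35 (95% confidence interval -0.07 to 0.78, unadjusted p = 0.0857). On both, the array of crush eye 3 was the highest of all. In pair 3 the median log2 difference of 8 rod markers was 0.744, against -0.206 in pair 1 and 0.18 in pair 2. Their summed intensity was lowest in control eye 3, at 35538. It was 56996 in crush eye 3, below the 60929 of control eye 1. The part of rod RNA in the values of Sox12 was not tested.

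Taking all probe sets, 3 of 32 were higher and past limma's unadjusted threshold, which is 9.38%, beside 5.16% of all tested probe sets, and 0 of 32 were lower, beside 2.51%. In 7 of 32 all crushed eyes lay above all controls, beside 7.29% of all probe sets, and in 0 all lay below, beside 5.25%. Of these 7, 3 belong to Sox11, 2 to Klf7, 1 to Klf6 and 1 to Sox4, so they represent 4 genes. The study's criteria join the methods' t-test with a ratio over 1.2 and a difference over 80. With limma's unadjusted p in its place, the brightest Klf6 probe set and 1453125_at of Sox11 met them, and these 2 of 32 stand beside 2.58% of all probe sets higher and 0 of 32 lower beside 0.543%. In 10 of 32 the crushed eye was higher in all 3 pairs, beside 17.6% of all probe sets. Probe sets of a gene share their transcript, and these counts describe the 9 genes without testing them as a group.

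The probe sets of the 3 roles can be set side by side by pair. The median log2 difference of the 9 probe sets of the growth-promoting KLFs was 0.332, 0.11 and 0.258 in pairs 1, 2 and 3. For the 13 of the SoxC genes it was 0.133, 0.24 and 0.322. For the 10 of the growth-limiting KLFs, of which 5 read Klf9, it was 0.00161, -0.334 and 0.198. The corresponding medians of all tested probe sets were 0.0178, -0.0818 and 0.0698. By gene, on brightest probe sets, the medians were 0.371, 0.032 and 0.174 for the 2 growth-promoting KLFs, 0.00142, -0.164 and 0.262 for the 4 growth-limiting ones and 0.104, 0.356 and 0.364 for the 3 SoxC genes. In pair 3 the order of the promoting and the limiting KLFs turned between the readings, with the promoting ones higher by probe set and lower by gene. The difference between roles was not tested.

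**Figure D4:**
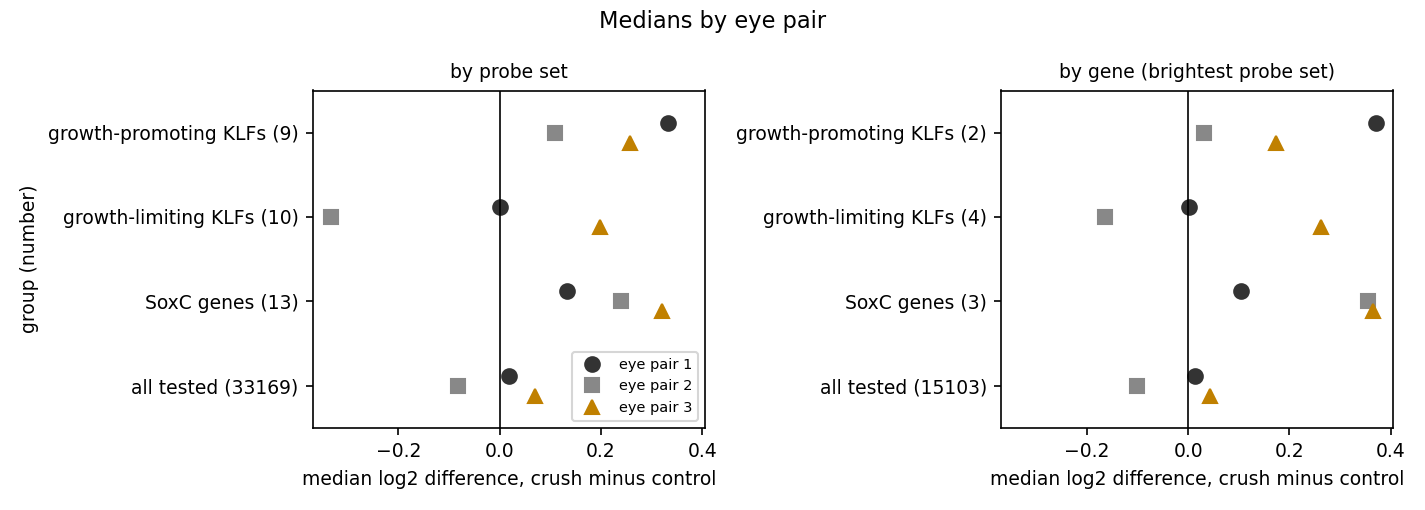
Median log2 difference, crush minus control, in each pair for the 3 roles and for all tested features, over probe sets on the left and over genes by their brightest probe set on the right, with the number of each in parentheses. A symbol stands for 1 pair, and the line is at 0. In pair 3 the median of the growth-limiting KLFs lies below that of the growth-promoting KLFs by probe set (0.198 and 0.258) and above it by gene (0.262 and 0.174).

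Across single arrays, the highest value of a member probe set was on a crush array in 27 of 32, or 84.4%, beside 58.9% of all tested probe sets. It was on the array of crush eye 3 in 13, or 40.6%, beside 29.2% of all, on that of crush eye 1 in 10, or 31.2%, beside 14.3%, and on that of control eye 1 in 0, beside 11.9%. The lowest value was on the array of control eye 3 in 10, or 31.2%, beside 18.2% of all, and on that of crush eye 2 in 9, or 28.1%, beside 34.6%. The array of crush eye 2 was no more often the lowest among the members than among all probe sets.

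Of the marker sums of other cells, only those of astrocytes and bipolar cells did not overlap between the groups. The summed intensity of 5 astrocyte markers was 5435 to 6444 in controls and 6547 to 7283 after crush, without overlap, and 2 of the 5 (Gfap and Pdgfra) passed limma's unadjusted threshold, both higher, beside 2.76% of all genes. Of the other 3, S100b was at 0.15, Igf2 at -0.02 and Aldh1l1 at -0.31, the last lower in all 3 pairs. That of 6 bipolar cell markers was 13400 to 15766 in controls and 10836 to 12925 after crush, also without overlap. All 6 had a log2 fold change below 0, and 3 passed the threshold, beside 2.27% of all genes that were lower. Of all 15103 tested genes, 8197 were below 0. Muller cell sums were 42799 to 48250 and 41648 to 44214, and 8 of their 10 markers were below 0, with 1 (Aqp4) past the threshold and lower. Microglia sums were 3604 to 5079 and 3725 to 4588, and 3 of their 8 markers were below 0, with 1 (Tmem119) past the threshold and lower. Those of amacrine cells were 34747 to 39770 and 31128 to 35535, with 8 of 10 markers below 0 and 0 past the threshold. Klf6, Klf7, Sox4 and Sox11 had non-overlapping probe sets over the same arrays, and the part of these cells in their values was not tested.

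The rest of the KLF family did not share a direction. Of 10 measured genes 6 were above 0, beside 45.7% of all genes, and 4 below, with a median log2 fold change of 0.04. Limma's unadjusted p was under 0.05 for 0 of them in either direction, beside 2.76% of all genes higher and 2.27% lower. The smallest p belonged to Klf1, the erythroid member, with a log2 fold change of 0.29, Klf11, a TGF-beta inducible repressor, with -0.32, Klf15, which glucocorticoids induce, with -0.29, and Klf2, the flow-induced factor of endothelium, with -0.56. Klf2 was higher in pair 1, at 0.0723, and lower in pair 2, at -1.43.

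Of the other Sox genes 13 were measured, 4 above 0, beside 45.7% of all genes, and 9 below, with a median of -0.14. Sox8, a SoxE factor of glia, was at 122, 102 and 107 in controls and at 82.9, 67.6 and 74.7 after crush. Its groups did not overlap and the pairs were close to each other, with a log2 fold change of -0.56 (standard error 0.13, unadjusted p = 0.00773 and adjusted p = 0.642 from limma). It was the 1 gene of the 13 lower by the unadjusted threshold, beside 2.27% of all genes, and 0 were higher. Sox5 had -1.04, of which pair 2 gave -2.49, while its 4 dimmer probe sets were at -0.08, -0.13, -0.14 and 0.01. Sox10, the factor of oligodendrocytes and neural crest, had -0.27, Sox14 had -0.26 and Sox21 had -0.22, each of them lower in all 3 pairs and none past the threshold on its brightest probe set. A dimmer probe set of Sox10 was past it, with -0.66 (unadjusted p = 0.0099 and adjusted p = 0.642 from limma), and another was at -0.15.

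Among 25 other regulators and effectors of axon growth, 2 were higher and 0 lower by limma's unadjusted threshold, beside 2.76% and 2.27% of all genes. In all, 13 of the 25 were above 0, beside 45.7% of all genes, and their median was 0.02. The 2 past the threshold were Socs3, the feedback inhibitor of cytokine signaling that limits regeneration, and Cebpb, a leucine zipper factor of injured neurons. Socs3 was at 139, 174 and 171 in controls and at 621, 419 and 1115 after crush. Its log2 fold change was 2.04, and its dimmer probe sets had 2.07 and, on the dimmest, 0.19. Cebpb was at 565, 560 and 709 in controls and at 706, 935 and 956 after crush. For Cebpb crush eye 1 lay just below control eye 3, and the log2 fold change was 0.50 (unadjusted p = 0.0213). The transcription factor Jun had 0.49 and differed in direction between pairs, at 0.81, -0.26 and 0.906. Tsc2, a brake on mTOR, had -0.31, Cntfr, the receptor for CNTF, had -0.45 and Bcl11a had -0.41, each lowest in pair 2 and none past the threshold. The 3 dimmer probe sets of Bcl11a lay on the other side of 0, at 0.15, 0.19 and 0.33, and the dimmer one of Cebpb was at -0.21.

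Of genes that SoxC factors are known to activate or accompany in neurons, 6 were measured, with a median of 0.11. Of these, 4 were above 0, beside 45.7% of all genes. In either direction 0 were past limma's unadjusted threshold, beside 2.76% of all genes higher and 2.27% lower. Dcx, a microtubule protein of young neurons, was at 315, 295 and 215 in controls and at 353, 347 and 315 after crush. It was higher in all 3 pairs with a log2 fold change of 0.31 (unadjusted p = 0.0902 from limma). Its dimmer probe set had -0.74, with log2 differences of -0.292, -1.99 and 0.0712 in pairs 1, 2 and 3. Tubb3 had 0.31, Nr2e1 had -0.16 and Pou4f1, a factor of mature RGCs, had 0.13.

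The genes whose profile over the 6 arrays lay nearest to that of Klf6, by the root mean square distance of centred log2 values, were Pradc1 (0.0443), Mast2 (0.045) and Gorasp1 (0.0497), where the profile of Klf6 itself had a root mean square of 0.199. For the brightest probe set of Sox11, with a root mean square of 0.133, they were Ctps2 (0.0281), Rilp (0.0306) and Txnrd2 (0.0306). There were 6 arrays and 33169 probe sets to choose from, and how near the closest profiles of other genes lie was not computed. This ranking is a description of the arrays.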

How the data were processed

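Gene expression was measured on 6 Affymetrix mouse genome arrays, 1 per eye, from RNA amplified after laser capture. Intensities on a linear scale were deposited, which the authors calculated in dChip with invariant set normalization and the PM/MM model. The file holds 45101 probe sets, of which 64 control probe sets were left out. Symbols came from the platform annotation, with 34945 probe sets carrying a single symbol. A floor of 16 was set before taking log2. Probe sets averaging 40 or more, 33169 in all, were tested with limma 3.58.1 in R 4.3.3, with eye number as a block, since the methods use a paired test. Deviations from the group means correlated by 0.154, 0.125 and 0.297 within the 3 numbered pairs. Between eyes of unlike number the correlations ranged from -0.264 to 0.131. The highest of these, control eye 2 with crush eye 1, was above that within pair 2, so they do not settle the pairing. P values were adjusted by Benjamini-Hochberg over all tested probe sets. The fit was also run on simulated arrays with independent noise. These held no effect of pair or array, so the run cannot show how the fit behaves where single arrays stand apart. Controls are contralateral eyes of the crushed animals, but that equal numbers mark 1 animal is not stated outright. The number of arrays limits the precision.

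A gene is represented by the probe set with the highest mean, and every probe set of the members is given. From each other list the genes with an unadjusted p under 0.05 and up to 4 more with the smallest p were to be named, and for Klf6 and Sox11 the 3 nearest profiles. The members and lists were chosen with earlier results of these data known. Alternatives covered the block, the floor (1 and 64), the intensity filter (none and 100), the scaling, the prior, the methods' t-test, the choice of probe set and the arrays used. Where the array of a single crush eye was left out, the fit had no block. Motif searches used the RefSeq promoter table of GRCm38.p6. Protein sequences were not used here.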

Additional observations from a re-analysis of the deposited data

How the results depend on the processing

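Klf6, Sox4, Sox11, Klf13 and both nominal probe sets of Sox11 stayed above 0 under every alternative run, but their sizes moved. Runs that left out a single crush array also left out the replicate block. Sox11, at 0.13, was 0.01 without pair 2, 0.23 without pair 1, 0.07 after quantile normalization, 0.08 without the array of crush eye 3 and 0.25 with the mean of probe sets. Klf13, at 0.18, was 0.28 without pair 2 and 0.10 without pair 3. Klf7, at 0.02, was 0.25 with the mean of probe sets and 0.22 without the array of crush eye 2. The count of the 9 members past an unadjusted p under 0.05 was 1, and it was 0 after quantile normalization, with arrays scaled to the same median and with the mean of probe sets, 2 when means of 100 or more were required and with limma's trend and robust prior, and 0 to 1 when a pair or a crush array was left out. The count of their probe sets was 3, and it was 5 with the trend and robust prior, and 1 without replicate 3, with a range of 1 to 5 over all omissions (1 without the array of crush eye 3 and 5 without that of crush eye 2). Without the replicate block, 1 member, 4 of their probe sets, 1 other Sox gene and 2 other regulators were past the threshold, and the block changed the call of no member's brightest probe set. The median of the members ranged from -0.03 to 0.18 when arrays were left out. The count of other Sox genes was 1 of 13, which was Sox8, lower. It was 0 of 8 when means of 100 or more were required, where Sox8, with a mean of 92.8, was not tested. It was 2 with a floor of 64, with the trend and robust prior, with the mean of probe sets and with no filter on intensity, and 1 to 2 with arrays left out. These calls were lower except without pair 1, where Sox8 no longer passed and the 1 call was Sox9, higher. That of other axon growth regulators was 2, and it was 1 without _x_at and _s_at probe sets and with the mean of probe sets, 0 by the methods' t-test, and 1 to 4 with arrays left out. For the SoxC target genes it was 0, and 1 with no filter on intensity and by the methods' t-test, and 0 to 1 with arrays left out, and for the other KLF genes 0, and 1 by the methods' t-test (Klf12, higher) and 0 to 1 with arrays left out (Klf5, lower, without the array of crush eye 3). Sox9, Klf12 and Klf5 are named after their values were seen. Genes near 0 changed sign. Klf9 had 0.0052 after quantile normalization, 0.010 without crush replicate 2 and 0.10 without pair 2. Klf4 had 0.18 without crush replicate 2 and 0.16 without pair 2. Klf7 had -0.053 without crush replicate 3, -0.11 without pair 1 and -0.002 without pair 3. Klf16 had 0.0045 without crush replicate 2. Sox12 had -0.15 without crush replicate 3 and -0.15 without pair 3. With arrays left out, Klf4 ranged from -0.30 to 0.18, Klf7 from -0.11 to 0.22, Klf9 from -0.15 to 0.10, Klf16 from -0.08 to 0.0045 and Sox12 from -0.15 to 0.36. The cause of these changes was not tested beyond the arrays left out. Dim probe sets limit what can be seen, since every array had 6876 to 7219 values under the floor.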
